A study of Mus musculus with 14 samples.

Results

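Parvalbumin (Pvalb), calbindin (Calb1) and calretinin (Calb2) are small proteins that bind calcium inside neurons, and their genes were followed here through 14 ganglion cells (RGCs) taken singly from the retina of adult mice. The members were all probe sets on the array that carry 1 of these 3 gene symbols and no other. There were 6 of them among the 45037 probe sets measured, 1 for Pvalb, 4 for Calb1 and 1 for Calb2, and the 3 genes were among 18193 genes with a probe set of their own. Each cell was hybridised to its own Affymetrix mouse genome array, and all 14 cells formed 1 group with no control group.

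The animals were offspring of Parvalbumin-cre mice (129P2/OlaHsd) and Tomato (Ai9) mice (C57BL/6 and 129 SV), kept as double heterozygotes on a mixed background. These strains are those of the labels, while the study's methods put the Cre line on a segregating background of C57BL/6 and 129P2OlaHsd and the reporter on C57BL/6J. Cre in this line follows the Pvalb gene and removes a stop in the Ai9 reporter for good, so that a red cell is one in which Pvalb was active at some time. After papain treatment of the adult retina, single red cells were drawn into a pipette and lysed at once, with no time in culture. Cells were chosen by this fluorescence, which the study described as uneven in this line, so the presence of Pvalb in them is not independent evidence of its expression in RGCs. Libraries had been screened by PCR for the RGC gene Sncg and against rhodopsin and glutamine synthetase, so markers of RGCs, rods and Müller glia were partly selected too. No source used here names the animal a cell came from.

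All 3 proteins hold calcium in EF-hand loops and take up part of the calcium that enters a neuron with each spike. Parvalbumin is best known from fast-spiking neurons, and in the mouse retina it is found in RGCs of several subtypes and in some amacrine cells. Calbindin is a classical marker of horizontal cells and is also made by some amacrine cells and RGCs, while calretinin labels many amacrine cells and RGCs. The stretch just before the start of Pvalb is shown because it lies next to the gene through which every one of these cells was labelled. It holds the 250 bases before the first of 2 starts listed for Pvalb in RefSeq, at chr15:78206401-78206650 of GRCm38.p6 on the minus strand, printed 5′ to 3′ in the direction of the gene.
Pvalb, upstream: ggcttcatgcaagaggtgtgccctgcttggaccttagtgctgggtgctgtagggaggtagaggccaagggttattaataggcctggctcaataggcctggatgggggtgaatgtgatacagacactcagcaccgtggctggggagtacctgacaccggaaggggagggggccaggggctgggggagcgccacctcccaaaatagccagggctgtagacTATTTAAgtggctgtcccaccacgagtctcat
The capitals mark the 1 match to the letters TATTTAA on either strand, a TATA-like sequence looked for after this stretch had been read, which spans 32 to 26 bases before the start. The same letters occurred in 4.18% of 32851 upstream stretches of the same length, and the match is given as a description only.

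A probe set was called detected in a cell when its signal reached 8 times the median signal of that array, because most probe sets of a single cell lie in the background. These thresholds lay between 64.2 and 439.7, and the cells had 4191 to 11910 probe sets detected, with a median of 7455. The label RGC was borne out by 14 measured RGC markers, of which 12 were detected in at least 7 cells and 8 in every cell, with 9 to 13 per cell. Among the 8 was Sncg, for which the libraries had been screened by PCR, so its detection adds no support to the label. Of 12 amacrine markers 1 reached 7 cells, of 6 horizontal cell markers 1, of 13 rod markers 3, of 8 cone markers 0, of 10 bipolar markers 2 and of 13 Müller glia markers 3, where 24.8% of all genes did so. The Müller glia markers were Clu in 12 cells, Glul, the glutamine synthetase gene of the PCR screen, in 8, and Dkk3 in 7, and cell 6 held the most of this list, 7 of 13. Cells 3 and 6 held 10 of the 13 rod markers each, against 2 to 4 in the other 12 cells. An array signal in 1 cell carries no replicate error, so differences between single cells are given as measured values without a test.

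Calretinin was the most widely detected of the 3 genes and calbindin the least. Calb2 was detected in 14 of 14 cells, Pvalb in 13 and Calb1 in 5. For comparison, 2.64% of all genes were detected in 14 cells, 5.27% in at least 13 and 33.3% in at least 5 (4.6% in exactly 5), while 41.8% were detected in none. Calb1, Pvalb and Calb2 occurred together in cells 2, 4, 7, 9 and 12. Pvalb and Calb2 without Calb1 occurred in cells 1, 3, 6, 8, 10, 11, 13 and 14. Cell 5 had Calb2 alone.

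**Figure D1:**
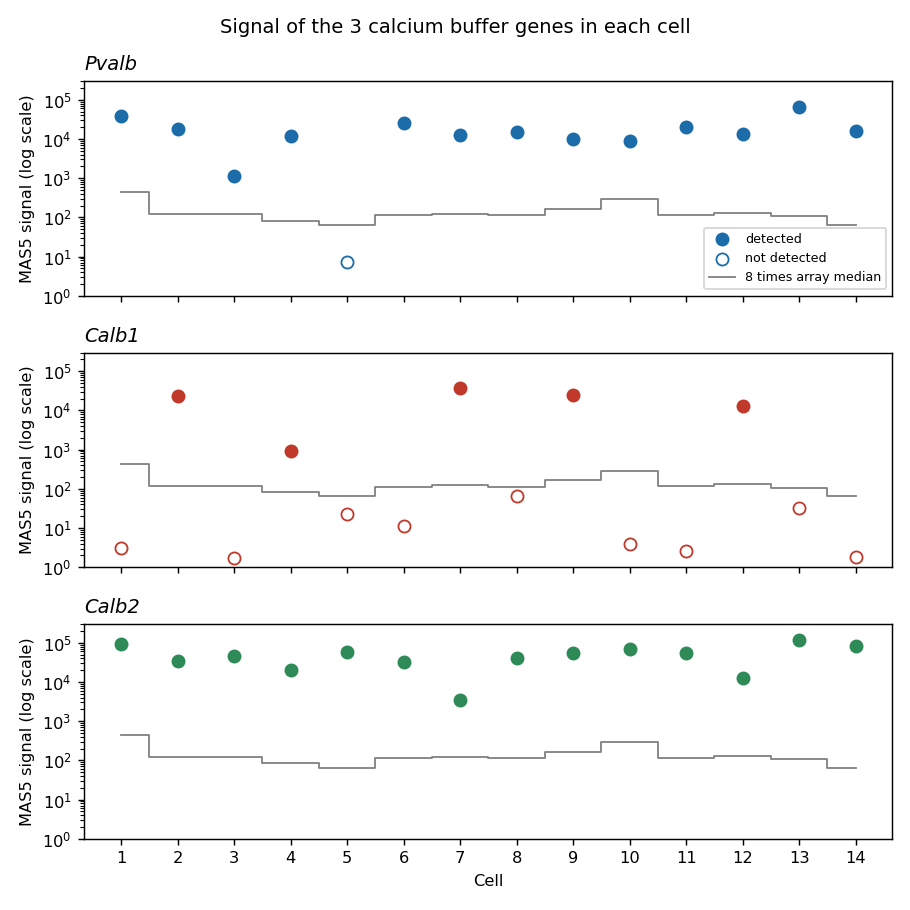
MAS5 signal (vertical axes, log scale) of Pvalb, Calb1 (leading probe set) and Calb2 in each of the 14 cells (horizontal axis), where a filled point marks detection, an open point its absence, and a grey line 8 times the array median. Calb2 lies above the line in all 14 cells, Pvalb in all but cell 5, and Calb1 in cells 2, 4, 7, 9 and 12.

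Pvalb, the gene that set the label, was strong in 12 cells, weak in 1 and at background in 1. Its signal was 37993 in cell 1, 17752 in cell 2, 1146 in cell 3, 11593 in cell 4, 7.27 in cell 5, 26015 in cell 6 and 12762 in cell 7. It was 14627 in cell 8, 10033 in cell 9, 8772 in cell 10, 20624 in cell 11, 13105 in cell 12, 65385 in cell 13 and 15898 in cell 14. Without cells 3 and 5, the signals spanned 7.45-fold around a median of 15263, with a mean log2 signal of 14.11 ± 0.84 (SD, n = 12). Cells 13 and 1 were the highest, and the 10 others of these 12 lay between 8772 and 26015, where neighbours cannot be told apart because each cell was read once.

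Cell 3 lay 7.65 times below the lowest of the 12 strong cells, though still far above its threshold of 121.8. Of 672 other genes detected in the 13 cells other than cell 5, 39 (5.80%) had as large a gap between their own lowest of these 13 cells and the next, and the median gap was 1.57-fold. Cell 3 was also a cell with 10 of 13 rod markers. Cell 6 had 10 of them as well, with a Pvalb signal of 26015. The part of the rod markers in the low Pvalb of cell 3 was not tested. The signal in cell 5 was 7.27, below even the array median of 8.16. Cell 5 had the fewest detected probe sets of all cells (4191), and of 674 genes detected in each of the other 13 cells, 194 (28.8%) were not detected in cell 5. The other genes of these 674 were detected there, and the part of the low number of probe sets in the missing Pvalb was not tested. Of 479 genes detected in exactly 13 cells, 40.5% missed cell 5.

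Calb2 was high in nearly every cell and lowest in cell 7. Its signal was 95524 in cell 1, 34021 in cell 2, 47045 in cell 3, 20471 in cell 4, 58950 in cell 5, 32958 in cell 6 and 3535 in cell 7. It was 40371 in cell 8, 54163 in cell 9, 70705 in cell 10, 53797 in cell 11, 12349 in cell 12, 117688 in cell 13 and 80209 in cell 14. The mean log2 signal was 15.26 ± 1.32 (SD, n = 14), and the signals spanned 33.3-fold. This spread was ordinary for a gene found in every cell: among the 479 other such genes, the median SD was 1.15, and 61.6% had a smaller SD than Calb2.

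In cell 7, Calb2 was 3.49 times below the lowest of the other 13 cells. A gap of this size was common: 98 of the 479 other genes found in every cell (20.5%) had one as large below their own next-lowest cell, with a median of 1.61-fold. Cell 7 had many probe sets detected (10483), and relative to the mean log2 signal of those 479 genes Calb2 stood 3.51 log2 units below its median over cells there. On the same relative scale cell 12 was 1.51 below the median and cell 4 was 0.62 below, while the highest cell, cell 1, was 1.24 above it.

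Calb1 divided the cells most sharply. The leading probe set, 1417504_at, read 22749 in cell 2, 951.7 in cell 4, 36529 in cell 7, 24366 in cell 9 and 12627 in cell 12. In cells 1, 3, 10, 11 and 14 it read 1.72 to 4.03, in cell 6 it read 11.2, in cell 5 it read 22.5, in cell 13 it read 31.7 and in cell 8 it read 67.3. No signal lay between 67.3 and 951.7. The value in cell 8 was below its threshold of 114.9 but passed at 4 times the array median, which gave 6 cells, while a fixed signal of 1000 removed cell 4 and gave 4.

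The other 3 probe sets of Calb1 did not repeat this pattern. Probe set 1456934_at was detected in cell 7 only, at 2670, with at most 61.8 elsewhere. Probe set 1448738_at was also detected in cell 7 only, at 391.6, with at most 68.0 elsewhere. Probe set 1458836_at was detected only in cell 13, at 122.6 against a threshold of 108.3 there, where the leading probe set was not detected. Cell 7, the cell with the highest leading signal, was therefore the only one in which more than 1 probe set detected Calb1, and in cells 2, 4, 9 and 12 the call rests on a single probe set.

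Over the 14 cells, the leading probe set had Pearson's r = 0.434 and Spearman's rho = 0.0813 with 1456934_at, r = 0.286 and rho = 0.0901 with 1448738_at, and r = -0.496 and rho = -0.451 with 1458836_at. Without cell 7 the first 2 of these r became -0.0469 and -0.215. The pair 1448738_at and 1456934_at followed each other more closely, with r = 0.920, and 0.747 without cell 7, where their signals were in the background. Such disagreement was not rare on these arrays. Among 201 other genes with 4 probe sets whose leading one was detected in 4 to 6 cells, a median of 50% of the leading probe set's cells were also detected by another one, against 20% (1 of 5 cells) for Calb1, and 32 of the 201 (15.9%) had none. The leading probe set and 1448738_at are listed under the same source sequence, although the first was detected in 5 cells and the second in cell 7 only. All cDNA was primed at the 3′ end of the RNA, and the positions of the probe sets on the transcript were not used here.

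**Figure D2:**
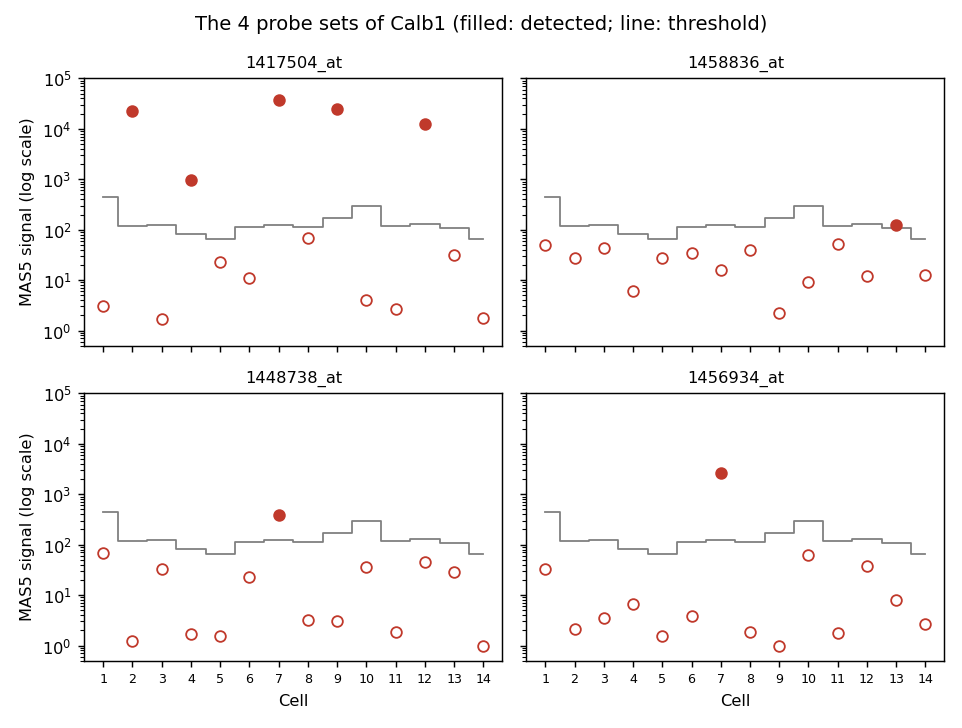
MAS5 signal (vertical axes, log scale) of the 4 Calb1 probe sets in each of the 14 cells (horizontal axes), with filled points where detected, open points where not, and a grey line at the detection threshold of 8 times the array median. The leading probe set 1417504_at is detected in 5 cells, 1448738_at and 1456934_at in cell 7 only, and 1458836_at just above the line in cell 13.

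Calb1 and Calb2 ran in opposite directions across the cells, and the relations of Pvalb with both hung on its 2 weak cells. Counted from the lowest Calb2 signal upward, cells 7, 12 and 4 came first and all had Calb1. Cell 6 followed without Calb1, then cell 2 with it and cells 8, 3 and 11 without. Cell 9 was the exception, with Calb1 at 24366 and Calb2 at 54163, and the 5 cells with the highest Calb2 (5, 10, 14, 1 and 13) had no Calb1. On log2(signal + 32), Calb1 and Calb2 had r = -0.687 and rho = -0.538 over 14 cells, and r = -0.721 without cells 7 and 9, the 2 farthest from the median of Calb1. Calb1 falls into 2 separate clusters of 5 and 9 cells, so these pooled values mostly express how Calb2 differs between them, and they are given as a description with no test.

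**Figure D3:**
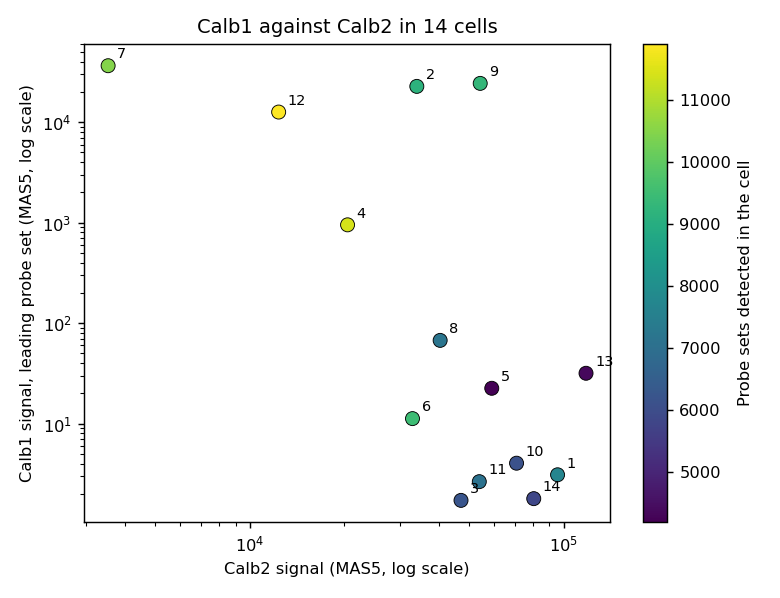
Calb1 signal of the leading probe set (vertical axis) against Calb2 signal (horizontal axis), both MAS5 signals on log scales, with 1 point per cell labelled by its number and coloured by the number of probe sets detected in that cell. Cells 7, 12 and 4 have the lowest Calb2 signals (3535, 12349 and 20471), cell 4 with a Calb1 signal of 951.7, and cell 9 has high signals of both genes.

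Both genes also moved with the number of probe sets detected per cell. The 5 cells with Calb1 had 9162 to 11910 probe sets detected, and the 9 without it had 4191 to 9496, highest in cell 6. Calb1 had r = 0.717 and rho = 0.596 with the number of probe sets detected. Calb2 had r = -0.745 and rho = -0.802 with it. The 479 other genes found in every cell had a median r of -0.333 with the same number, 79.1% of them were negative, and 8.56% were lower than Calb2. The 835 other genes detected in exactly 5 cells had a median r of 0.314 with it, and 94.5% were lower than Calb1. Given the number of probe sets detected, the partial r of Calb1 and Calb2 was -0.329. Of the 835 genes detected in exactly 5 cells, 73.2% had a negative r with Calb2 (median -0.183) and 2.28% had one as low as Calb1. These points share the scaling of the arrays, and the part of depth in the relation was not tested beyond these values.

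Pvalb had r = 0.127 and rho = -0.0945 with Calb1, and r = -0.00667 and rho = 0.209 with Calb2. Both values of r depended on the 2 weak cells: without cells 3 and 5 they became -0.441 and 0.451 over 12 cells. With the number of probe sets detected, Pvalb had r = 0.347 over all cells and -0.470 without cells 3 and 5. All 3 values of r changed sign when the weak cells were left out, and without cell 5 alone the last was -0.0667. With the log2 ratio of 3′ to 5′ Gapdh signal, a measure of RNA and cDNA length, Pvalb had r = 0.363, Calb1 -0.418 and Calb2 0.423. The values of rho with it were 0.591, -0.503 and 0.490. Without cells 3 and 5, Pvalb had r = 0.475 and rho = 0.650 with this ratio. Calb1 had r = -0.317 and rho = -0.455 without cells 7 and 9, and Calb2 had r = 0.670 and rho = 0.699 without cells 7 and 12. The Gapdh ratio ran from 0.126 in cell 4 to 1.39 in cell 14. The same ratio for beta-actin ran wider, from 0.858 in cell 4 to 6.74 in cell 11, with 4.58 in cell 5. Its relation to the 3 genes was not tested.

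**Figure D4:**
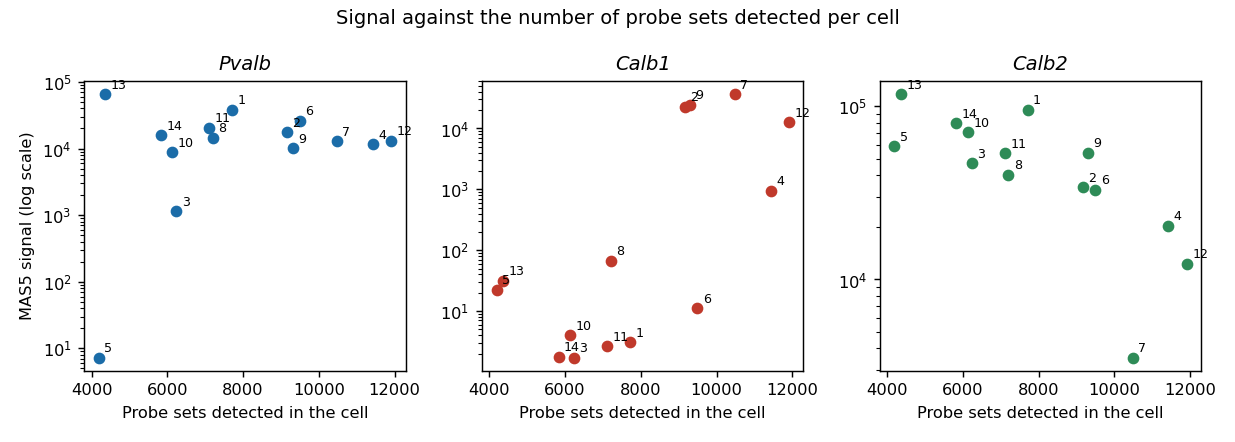
MAS5 signal (vertical axes, log scales that differ between panels) of Pvalb, Calb1 (leading probe set) and Calb2 against the number of probe sets detected in the cell (horizontal axes), with 1 point per cell labelled by its number. Calb1 is detected in 5 cells at the right, with 9162 to 11910 probe sets, and not in cell 6 with 9496. Calb2 falls from left to right, and Pvalb is low in cells 3 and 5 only.

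Calbindin is also a horizontal and amacrine cell marker, so markers of both classes were read in the 5 cells with Calb1. The horizontal cell factors Lhx1, Onecut1 and Onecut2, with Tfap2b and the transporter Slc4a5, were detected in none of them. In the other 9 cells, only Onecut2 of these was detected, in cell 13. Of the 6 horizontal cell markers, the 5 cells thus had only Septin4, which was detected in all 14 cells. Their summed signal was 11178 to 27312 in the 5 cells and 543.4 to 31652 in the other 9. Septin4 alone ran from 463.5 to 31594 over the 14 cells, so these sums mostly express that gene. Of 12 amacrine markers, 2 were found in any of the 5 cells: Pax6, which was in 12 of all 14 cells, and the glycine transporter Slc6a9, which was in cells 2 and 4 of the 5 and in cells 5, 6, 11 and 14. The GABA and acetylcholine genes Gad1, Gad2, Slc32a1, Chat and Slc18a3 were in none of the 5. In the other 9 cells, Gad1, Chat and Slc18a3 were not detected either, Gad2 was in cell 1 only and Slc32a1 in cells 3, 5 and 8. These absences are therefore not particular to the 5 cells, and 41.8% of all genes were detected in no cell. The summed signal of the 12 amacrine markers was 4042 to 15511 in the 5 cells, where only Pax6 and Slc6a9 were detected, and 190.0 to 24908 in the others. The 5 cells had 12 or 13 of the 14 RGC markers each, and the other 9 had 9 to 12, with 12 in cells 1 and 6. The 5 cells also had more probe sets detected (9162 to 11910, against 4191 to 9496), and the part of this in the marker counts was not tested.

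Genes were ranked by Pearson's r with each of the 3 on log2(signal + 32) over 14 cells, among the genes detected in at least 4 cells. An r of at least 0.7 was reached by 221 of 6882 genes with Pvalb (3.21%), by 145 with Calb1 (2.11%) and by 7 with Calb2 (0.102%), and an r of -0.7 or lower by 29 (0.421%), 3 (0.0436%) and 65 (0.944%). The 5 genes most like Pvalb were the transcriptional corepressor Tle5 (r = 0.951), the proteasome deubiquitinase Psmd14 (0.948), the lipid kinase Pi4ka (0.945), the secretory carrier protein Scamp1 (0.940) and Emb, the adhesion protein embigin (0.938). All of them were detected in every cell but cell 5, and without cells 3 and 5 their r was 0.701, 0.180, 0.352, 0.633 and 0.452. The lowest r with Pvalb belonged to Epn2 (-0.903), Ercc8 (-0.883) and Ncoa2 (-0.867), which all had their highest signal in cell 5. Without cells 3 and 5, 14 of the 221 genes still had an r of at least 0.7 with Pvalb. In all, 50 genes reached it without those cells, and 133 had an r of -0.7 or lower.

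The 5 genes most like Calb1 were Tmem14c (r = 0.960, and 0.932 without cells 7 and 9), Fam163a (0.953 and 0.931), the anaphase-promoting complex subunit Cdc27 (0.920 and 0.907), the AMPA receptor auxiliary subunit Cacng3 (0.919 and 0.898) and the glycolytic kinase Adpgk (0.910 and 0.864). Of the 145 genes with an r of at least 0.7, 66 kept it without cells 7 and 9. In all, 143 genes reached it without those cells, and 12 had an r of -0.7 or lower. Of the 5 most alike genes, 3 were the same with a smaller pseudocount and also 3 with a larger one. Fam163a was detected in exactly the same 5 cells as Calb1, where its signal ran from 1194 to 10995, and read 139.5 or less in the other 9. Besides Fam163a, 12 other genes shared these 5 cells, 13 of 835 in all (1.56%), with Cdc27, Adpgk, the kinase Oxsr1 and Gsdme next by r. Among 473 sets of 5 cells seen for such genes, 1 held more genes (15), and the median was 1 gene per set. Cells 12, 4 and 7 alone held 69.6%, 58.9% and 56.6% of the 836 genes detected in exactly 5 cells. The lowest r with Calb1 belonged to the splicing regulator Rbfox1 (-0.757), Prrc2b (-0.721) and the retinoic acid enzyme Aldh1a3 (-0.716), whose signals were 38.6 to 197.2 throughout.

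Calb2 was followed most closely by the G protein subunit Gng3 (r = 0.808, rho = 0.899), Aldh1a3 (0.786, rho = 0.785), the kinesin Kif1b (0.774, rho = 0.952), the deubiquitinase Usp34 (0.754, rho = 0.670) and the spectrin Sptan1 (0.722, rho = 0.837). Gng3, Kif1b and Sptan1 were detected in all 14 cells, and without cells 7 and 12 their r rose to 0.911, 0.893 and 0.801, while that of Aldh1a3 fell to 0.704 and that of Usp34 to 0.586. Of the 7 genes with an r of at least 0.7, 4 kept it without those cells. The small number hung on cells 7 and 12: without them 58 genes in all reached an r of at least 0.7 with Calb2, and 61 had -0.7 or lower. Across cells the mean log2 signal of the 479 other genes found in every cell also followed Calb2, with r = 0.552 and rho = 0.793. The lowest r with Calb2 belonged to Dcun1d1 (-0.893), Recql5 (-0.873) and Nup188 (-0.871), each detected in 4 or 5 cells and highest in cell 7, and without cells 7 and 12 these became -0.752, -0.624 and -0.461.

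Other genes that handle calcium ranged from every cell to none. Of 65 measured genes on the calcium lists besides the 3, 26 (40%) reached 7 or more cells, another 22 were found in 1 to 6, and 17 were not found, with a median of 4 cells, against 24.8% of all genes in at least 7 cells and a median of 1. Of the other cytosolic buffers, S100g (calbindin D9k) and secretagogin (Scgn) were detected in no cell, with signals of at most 74.2 and 80.0. Of 10 S100 genes, S100a10 was detected in 13 cells, S100a1 in cells 1 and 8, S100a16 and S100b in 1 cell each, and 6 in none. The S100b signal of 138.7 in cell 11 passed the threshold there, though other cells without detection reached 213.8.

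Neuronal calcium sensors pass calcium signals on to channels and enzymes, and 8 of 19 were detected in at least 7 cells. Hippocalcin (Hpca) had signals of 2873 to 40436 and the potassium channel partner Kcnip4 675.1 to 41336, and both were in all 14 cells. Ncs1 was in 13 cells, Hpcal1, Vsnl1 and Caln1 in 12, Kcnip1 in 11 and Ncald in 10. Hpcal4 was in cells 3, 4, 6 and 13 and Kcnip3 in cells 4, 9, 10 and 14. Kcnip2 and Cabp1 were detected in cell 1 only, at 17961 and 18273 against at most 77.8 and 94.6 elsewhere. The photoreceptor sensor recoverin (Rcvrn) was in cells 2, 3, 6 and 14, with its highest signal of 21900. Cells 3 and 6 were those with the most rod markers, a count that includes Rcvrn itself.

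Pumps and exchangers clear calcium from the cytosol, and 7 of 14 were detected in at least 7 cells. The endoplasmic reticulum pump Atp2a2 (1942 to 77103), the plasma membrane pump Atp2b2 (244.9 to 32410) and the sodium, potassium and calcium exchanger Slc24a3 (1487 to 45453) were in all 14 cells. Atp2b3 and the sodium and calcium exchanger Slc8a3 were in 11 cells, Slc24a2 in 9, Atp2c1 in 7, Atp2b1 and Slc8a1 in 6, and Atp2a3, Atp2b4 and Slc8b1 in none. Atp2b1 was in cells 2, 6, 7, 8, 9 and 12 and the mitochondrial uniporter Mcu in cells 2, 6, 7, 9 and 12. Of 5 mitochondrial uptake genes, Micu3 was in 12 cells and Smdt1 and Letm1 in 11.

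Calcium-binding proteins of the endoplasmic reticulum and secretory pathway were common, with 7 of 10 in at least 7 cells. Canx and Hspa5 were in 12 cells, Calr, Rcn2 and Sdf4 in 11, Calu and Nucb1 in 9, and Rcn3, Rcn1 and Nucb2 in 4, 3 and 3. No calcium release channel reached 7 cells. Of 5 measured, with Itpr1 not measured here, Ryr2 was in cells 1, 2 and 12, Itpr3 in cell 1, and Itpr2, Ryr1 and Ryr3 in none. Each of these genes was read through its probe set with the highest mean signal, so a gene in no cell was not shown to be absent.

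**Figure D5:**
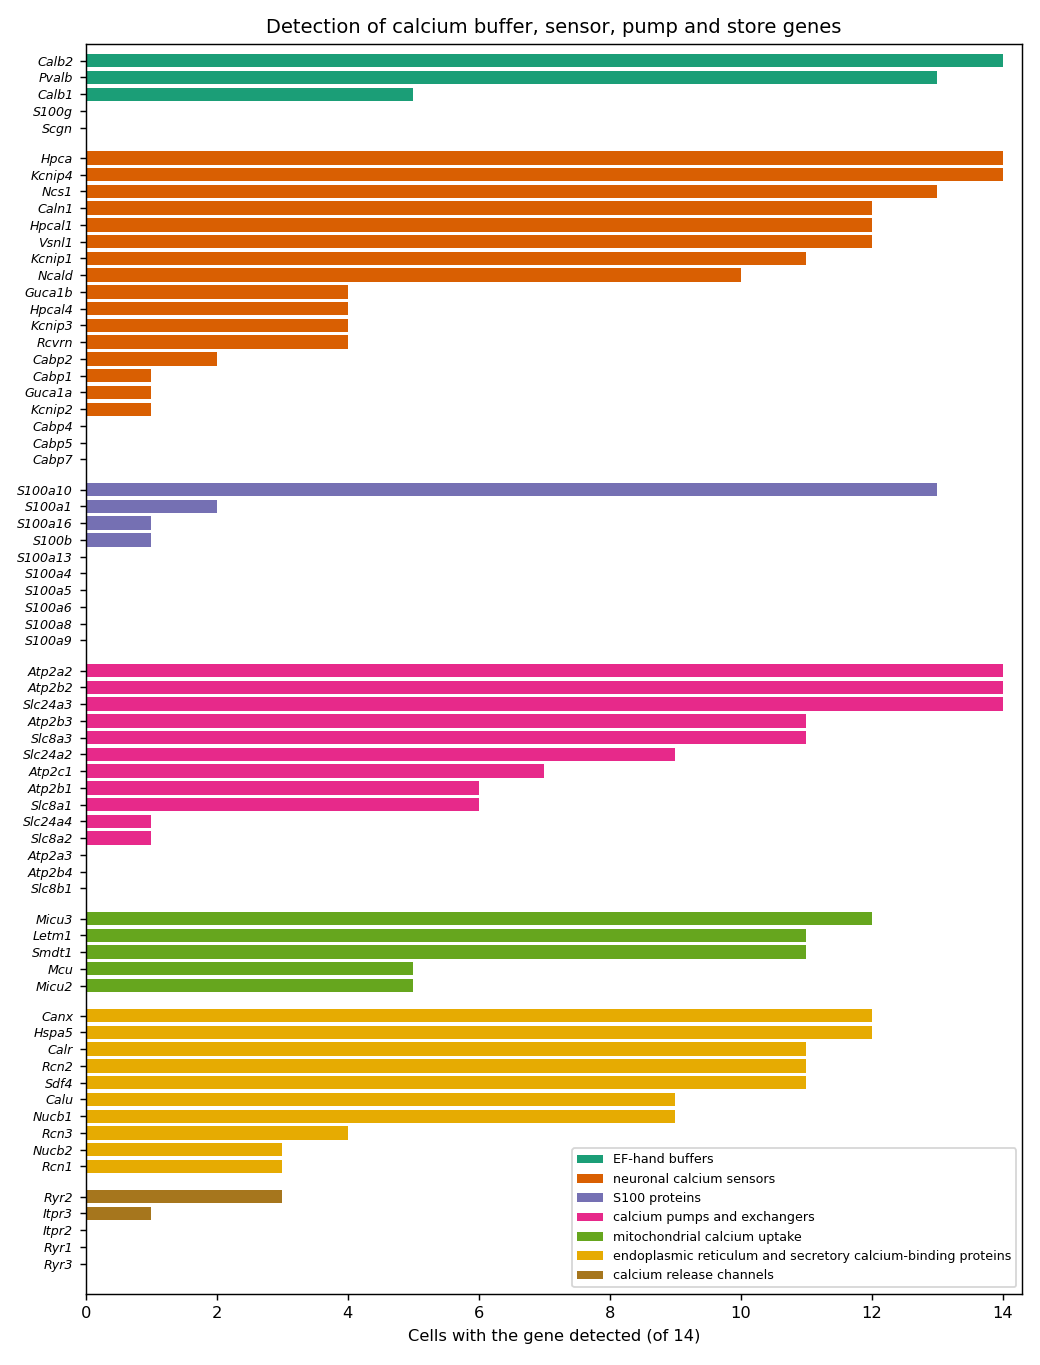
Number of cells of 14 (horizontal axis) in which each measured gene of 7 calcium lists (vertical axis, coloured by list) was detected at 8 times the array median, with no bar where the number is 0. Calb2, Hpca, Kcnip4, Atp2a2, Atp2b2 and Slc24a3 reach 14 cells, and no calcium release channel exceeds 3.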

How the data were processed

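The authors deposited linear MAS5 signal intensities, 1 per probe set and array, and no source used here gives the MAS5 version. The 2% trimmed mean was 500.0 for each array, as left by a single scaling factor. The study names 2 facilities for its arrays without saying which read these cells. cDNA was primed with oligo-dT and amplified by PCR, so low transcripts can be missed by chance. Precision is limited by how many arrays there were.

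Of 45101 probe sets, 64 controls were left out. Names came from the platform annotation, and symbols were brought up to date by gene number with the RefSeq table of GRCm38.p6 (34741 of 34945 probe sets with 1 gene matched). Another 932 had several genes and 9160 were unnamed here. Where a gene had several probe sets, the one with the highest mean of log2 signals stood for it. Apart from this choice, the summed marker signals and the 4 probe sets of Calb1, levels of different probe sets were not compared.

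Correlations used log2(signal + 32) and genes detected in at least 4 cells, and carry no p-value. Named genes were the 3 genes, members of the calcium and marker lists, the 5 highest and 3 lowest by r with each, and up to 5 genes in exactly the cells of Calb1. Members and lists were chosen with earlier results of these data known. Of the calcium list genes, 5 were not measured here through a probe set of their own. Detection at 4 and 16 times the array median and at 1000, pseudocounts of 1 and 128, quantile normalization, the mean of or any of a gene's probe sets, and leaving out each cell in turn, cells 3 and 6, or cells 5 and 13 were tried as alternatives. Python 3.11.15, numpy 2.4.6, pandas 2.3.3 and matplotlib 3.10.9 were used.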

Additional observations from a re-analysis of the deposited data

How the results depend on the processing

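Of 88 values recomputed with other detection rules, scalings, pseudocounts or probe set rules, as a partial r, or without cells 3 and 6 or cells 5 and 13, 81 stayed within the set limits (1.5 times for counts, 0.15 for r, 10 percentile points for a spread). Counts of cells detected by a pair of Calb1 probe sets had to stay the same. Pvalb and Calb2 have 1 probe set each, so the probe set rules could not change their counts, which are among the 81. Leaving out cells 3 and 5, which is not among the 88, turned the r of Pvalb with the number of probe sets detected from 0.347 to -0.470. When the 4 probe sets of Calb1 were averaged, it was detected in 1 cell in place of 5. Quantile normalization moved the r of Calb2 with the number of probe sets detected to -0.439. The partial r of Calb1 and Calb2 given that number was -0.329, an alternative chosen after seeing the data, as was centring each cell on the genes found in all 14 cells (-0.645). Leaving out each cell in turn gave r between -0.811 and -0.579 for Calb1 with Calb2, between -0.0571 (without cell 5) and 0.189 for Pvalb with Calb1, and between -0.126 and 0.213 (without cell 5) for Pvalb with Calb2. With the number of probe sets detected, r lay between -0.0667 (without cell 5, a change of sign) and 0.546 (without cell 13) for Pvalb, 0.665 and 0.784 for Calb1, and -0.830 and -0.698 for Calb2. No paired analysis was possible because all cells form 1 group. The signal over background limits every call of absence.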
